A study of Triticum aestivum with 12 samples.

Results

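Wheat grain of the wild-type cultivar Zhoumai22 was compared between 30 and 20 days after anthesis, across every gene of the deposited table, with 3 libraries at each age and 6 of the series' 12 libraries in all. The labels call the tissue immature grain at both ages, and RNA was extracted from crushed grains as total RNA. The other 6 libraries come from a mutant cultivar, HPm512, at the same ages, whose labels give high antioxidant activity as its phenotype. Their values are described here only to show where the mutant's change with age differed. They also enter the filter, the scaling and the estimate of scatter behind the wild-type test, since all 12 libraries were fitted together. The libraries carry no treatment, and the labels give neither how the mutant was made nor whether each library of a group is from a plant of its own. The p-values therefore speak of how far these libraries scatter, and that scatter may be technical only.

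A wheat grain fills and then dries. In the filling phase the starchy endosperm makes starch and storage proteins, gliadins and glutenins among them, while the embryo and the living aleurone layer around the endosperm later gather proteins that protect cells against water loss. In whole-grain RNA, as here, fewer cells of a type and less RNA per cell cannot be told apart.

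The table held 25269 genes. Its 12416 gene models lay on chromosomes 1A, 1B and 1D, with 4344, 4714 and 3358 models respectively, and the rest were non-coding RNA genes, so the genes on the other chromosomes were not analysed here. Levels are given as the authors' FPKM, fragment counts divided by gene length and by the library's total. Library totals, worked out by setting counts against FPKM, ran from 63250220 to 73558050 reads in the 6 wild-type libraries. The table took up 22.2 to 22.7% of those totals at 20 days and 13.4 to 13.5% at 30 days. After a filter of at least 1 FPKM in at least 3 of the 12 libraries, 5723 genes were tested with edgeR's quasi-likelihood test, and an adjusted p under 0.05 is a call. The test scales libraries by the trimmed mean of M-values (TMM), which lowers the 30-day libraries by 0.24 on the log2 scale relative to FPKM, as the median of all genes shows. A log2 fold change here is therefore a little below the ratio of the FPKM printed beside it. Coordinates are those of the deposited table, whose genome build is not given in the sources used here.

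Wild-type grain changed widely between the ages. Of 5723 tested genes, 1819 (31.8%) were higher and 1826 (31.9%) lower at 30 days. The counts of each gene list below are to be read against these shares. With library totals alone as the scale, the calls were 2269 higher and 1469 lower, which moved the higher share of the calls from 49.9% to 60.7%. The falls ran deeper than the rises. At least 2-fold changes numbered 1006 higher and 1190 lower, 38.4% of tested genes together, while at least 16-fold changes numbered 60 higher and 183 lower. The 3 chromosomes behaved alike in these counts, with 653 higher and 691 lower of 1908 tested models on 1A, 554 and 560 of 1619 on 1B, and 518 and 550 of 1544 on 1D.

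**Figure D1:**
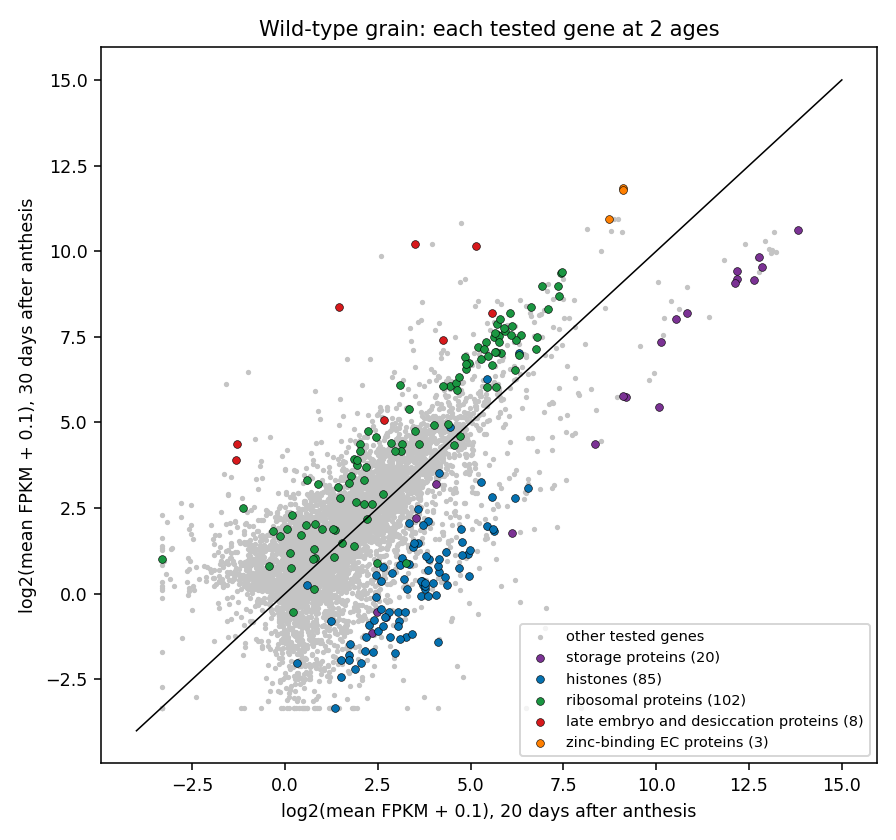
Each tested gene's mean level in wild-type grain at 20 days (x axis) and 30 days (y axis) after anthesis, both as log2(FPKM + 0.1), with 5 gene lists coloured and the diagonal marking equal levels. Storage protein and most histone genes lie below the diagonal, and late embryo, zinc-binding EC and most ribosomal protein genes lie above it.

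Storage protein genes fell together and from the highest levels in the table. All 20 tested of 45 listed members were lower at 30 days, against 31.9% of all tested genes, with a median log2 fold change of -3.46 against -0.01 for all genes. The 43 genes annotated with nutrient reservoir activity took 4.98, 4.84 and 5.03% of all reads in the libraries at 20 days and 0.548, 0.552 and 0.543% at 30 days. The groups did not overlap, and the exact two-sided permutation test gave p = 0.1, the smallest that 3 against 3 libraries allow.

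TraesCS1D02G001200, Gamma-gliadin 2, encodes a monomeric gluten protein and was the most abundant tested gene at 20 days. It stood at 14843, 13527 and 15088 FPKM in the 3 libraries at 20 days and 1549, 1591 and 1548 FPKM at 30 days (log2 fold change -3.45 ± 0.27 SE, edgeR adjusted p = 1.6e-07). Every library at 20 days was far above every library at 30 days, yet the gene still ranked 8 in abundance among tested genes at 30 days. The deepest fall of the list was that of TraesCS1D02G067100, a gene with nutrient reservoir activity and no description. It was at 1047, 1078 and 1117 FPKM at 20 days and 43.4, 43.7 and 45 at 30 days (log2 fold change -4.86 ± 0.36 SE, edgeR adjusted p = 9.7e-08). All 10 tested gliadin genes fell, and so did both genes described as Globulin 1. The more abundant of these, TraesCS1D02G317300, was at 1515, 1412 and 1517 FPKM at 20 days and 244, 267 and 264 at 30 days (log2 fold change -2.76 ± 0.20 SE, edgeR adjusted p = 7.5e-08). Gliadins sit in families of near-identical copies, and how the authors assigned reads that match several copies is not given in the sources used here, so single members are less certain than the list.

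The same fall appeared in gene models that the table classes as nontranslating coding sequences, which carry no description. All 34 tested of 57 were lower at 30 days, with a median log2 fold change of -3.42. Together the 57 took 8.75, 8.12 and 8.62% of all reads at 20 days and 1.24, 1.27 and 1.27% at 30 days, more than the nutrient reservoir genes at either age. TraesCS1D02G000200, chosen after its values were seen as the most abundant of them, was at 10246, 8832 and 9686 FPKM at 20 days and 1006, 999 and 1017 at 30 days (log2 fold change -3.49 ± 0.30 SE, edgeR adjusted p = 3e-07) and ranked 2 at 20 days.

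Small antimicrobial proteins of the endosperm fell as well. Of 11 listed thionin and defensin genes 7 were tested, and all 7 were lower. Their median log2 fold change was -4.04, with -4.68 when the third library at 30 days was left out and -1.99 by limma on log2(FPKM + 1). TraesCS1B02G426100 encodes Alpha purothionin, a cysteine-rich thionin of wheat endosperm, and was at 7941, 8024 and 7403 FPKM at 20 days and 1234, 1261 and 1254 at 30 days (log2 fold change -2.88 ± 0.20 SE, edgeR adjusted p = 6.7e-08). An undescribed gene annotated with defense response, TraesCS1A02G398200, chosen after its values were seen, lay at 9464, 9729 and 8452 FPKM at 20 days and 1471, 1505 and 1525 at 30 days (log2 fold change -2.86 ± 0.21 SE, edgeR adjusted p = 7.8e-08). The largest fall among described genes at 5 FPKM or more was that of a Defensin, TraesCS1A02G014000, with 25.3, 27.7 and 21.8 FPKM at 20 days and 0, 0.398 and 0 at 30 days (log2 fold change -7.65 ± 0.65 SE, edgeR adjusted p = 3.2e-07). Reads of this gene were absent from 2 of the 3 libraries at 30 days, so its fold is uncertain: the fitted value is -12.77 without the second library at 30 days, which leaves no read at that age, -7.06 without the third, and -4.53 by limma on log2(FPKM + 1).

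Both genes in a list of storage protein activators fell. Storage protein activator is a basic leucine zipper factor that binds gluten gene promoters. Its gene TraesCS1D02G332200, chosen after its values were seen, was at 4.45, 6.66 and 6.53 FPKM at 20 days and 0.422, 0.231 and 0.301 at 30 days (log2 fold change -4.43 ± 0.37 SE, edgeR adjusted p = 3e-07). TraesCS1B02G343500, described as a Transcriptional activator, showed the largest fall in the list of transcription factors, with 12.3, 14.2 and 11.4 FPKM at 20 days and 0.408, 0.723 and 0.865 at 30 days (log2 fold change -4.47 ± 0.35 SE, edgeR adjusted p = 1.4e-07). No library at 30 days came near a library at 20 days in either gene. Among 80 tested transcription factors 30 rose and 38 fell (37.5 and 47.5%, against 31.8 and 31.9% of all tested genes). The largest rise was that of an undescribed DNA-binding factor, TraesCS1A02G219200, at 1.86 ± 0.43 FPKM at 20 days and 21.3 ± 2.8 at 30 days (mean ± SD, n = 3), and the most abundant factor, TraesCS1D02G244500, rose with a log2 fold change of 0.61.

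**Figure D2:**
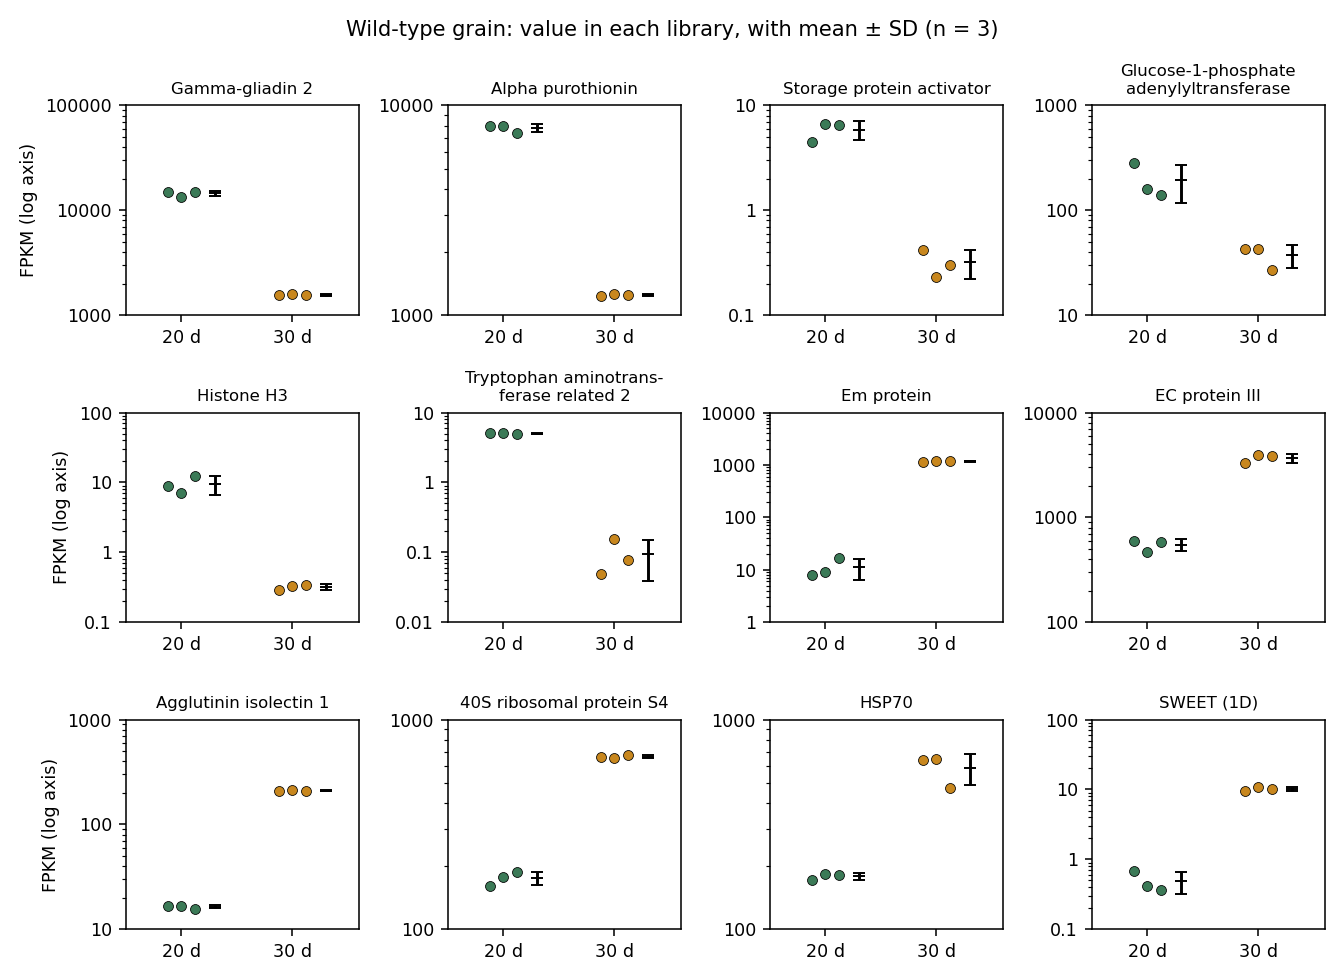
FPKM (log axis, a range of its own in each panel) of 12 genes in each wild-type library, 3 at 20 and 3 at 30 days after anthesis, with the mean ± SD (n = 3) beside the points. In each panel the 3 libraries of one age lie wholly above the 3 of the other.

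Genes that feed the endosperm with carbon fell in part. Of 13 tested starch synthesis genes 8 fell and 5 rose, with a median log2 fold change of -1.33. Glucose-1-phosphate adenylyltransferase makes ADP-glucose, the sugar donor of starch synthesis. Its gene on 1A, TraesCS1A02G419600, the most abundant of the list, was at 172, 173 and 159 FPKM at 20 days and 67.2, 64.2 and 61.7 at 30 days (log2 fold change -1.63 ± 0.16 SE, edgeR adjusted p = 1.4e-06). The gene on 1B, TraesCS1B02G449700, chosen after its values were seen, was at 281, 159 and 139.5 FPKM at 20 days and 42.3, 42.6 and 27 at 30 days (log2 fold change -2.62 ± 0.29 SE, edgeR adjusted p = 3.8e-06), and its first library at 20 days stood well above the other two. All 3 tested genes annotated as isoamylase, a starch debranching enzyme, were lower. The starch synthases split: 5 described as chloroplastic or amyloplastic rose, and the 3 other tested genes of that enzyme class fell. The largest rise at 5 FPKM or more was that of TraesCS1B02G155700, at 2.43 ± 0.0778 FPKM at 20 days and 5.22 ± 0.374 at 30 days (mean ± SD, n = 3) with a log2 fold change of 0.86. The largest fall among those at 5 FPKM or more was that of TraesCS1A02G091500, at 13.1 ± 1.12 FPKM at 20 days and 1.47 ± 0.063 at 30 days (mean ± SD, n = 3) with a log2 fold change of -3.39.

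Sugar transporters of the SWEET family carry sugars across membranes down their gradient, and their members moved in opposite directions. Of 6 tested of 11 SWEET genes 3 rose and 2 fell. TraesCS1D02G265400 was at 0.683, 0.416 and 0.364 FPKM at 20 days and 9.39, 10.7 and 10.2 at 30 days (log2 fold change 4.10 ± 0.36 SE, edgeR adjusted p = 4.5e-07). TraesCS1B02G276000, chosen after its values were seen, was at 0.259, 0.308 and 0.615 FPKM at 20 days and 4.81, 5.18 and 5.44 at 30 days (log2 fold change 3.44 ± 0.40 SE, edgeR adjusted p = 6e-06), and TraesCS1A02G265200 at 2 ± 0.119 FPKM at 20 days and 8.92 ± 0.0516 at 30 days (mean ± SD, n = 3) rose with a log2 fold change of 1.91. Both genes that fell were chosen after their values were seen. TraesCS1A02G050400 was at 2.25, 2.14 and 3.21 FPKM at 20 days and 0.198, 0.298 and 0.153 at 30 days (log2 fold change -3.73 ± 0.40 SE, edgeR adjusted p = 3e-06), and TraesCS1D02G052700 at 1.2 ± 0.129 FPKM at 20 days and 0.0863 ± 0.106 at 30 days (mean ± SD, n = 3) with a log2 fold change of -3.99 (-5.49 without the third library at 30 days). All of these levels are low beside those of storage genes.

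A few more genes are described singly, several of them chosen because they fell. TraesCS1B02G081300, described as Endosperm transfer cell specific PR60 and chosen after its values were seen, was at 31.1, 33.8 and 23.1 FPKM at 20 days and 1.73, 1.71 and 2.46 at 30 days (log2 fold change -4.13 ± 0.20 SE, edgeR adjusted p = 3.9e-09). Transfer cells take up nutrients at the edge of the endosperm. Tryptophan aminotransferase related 2, an enzyme of the route to the hormone auxin, is encoded by TraesCS1D02G114800. It was at 5.04, 5.08 and 4.9 FPKM at 20 days and 0.0488, 0.157 and 0.0778 at 30 days (log2 fold change -5.86 ± 0.44 SE, edgeR adjusted p = 1.2e-07), the largest fall in a list of 24 tested auxin genes of which 8 fell and 6 rose. The largest rise in that list was that of TraesCS1B02G232800, described as MYBS3, at 7.3 ± 0.913 FPKM at 20 days and 35 ± 1.46 at 30 days (mean ± SD, n = 3). All 3 tested genes annotated as alanine aminotransferase, which moves amino groups between alanine and pyruvate, were lower. A pair of them chosen after their values were seen, TraesCS1A02G085600 and TraesCS1D02G086700, had log2 fold changes of -2.26 and -2.36. The 3 tested genes of a proton-pumping pyrophosphatase, a membrane enzyme that uses pyrophosphate to move protons, also fell, the deepest being TraesCS1A02G107200 at 78.5, 83.7 and 80 FPKM at 20 days and 3.38, 3.69 and 3.09 at 30 days (log2 fold change -4.81 ± 0.24 SE, edgeR adjusted p = 4.3e-09).

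The opposite movement was led by genes of late embryo development. Em proteins are late embryogenesis abundant proteins, hydrophilic proteins that gather in embryos before drying. Of 9 listed late embryo and desiccation genes 8 were tested, and all 8 rose, against 31.8% of all tested genes, with a median log2 fold change of 5.06. The 5 genes described as Em protein gave the 5 largest rises among described genes at 5 FPKM or more. TraesCS1D02G226000 was at 0.551, 1.31 and 6.11 FPKM in the 3 libraries at 20 days and 311, 344 and 346 FPKM at 30 days (log2 fold change 6.71 ± 0.78 SE, edgeR adjusted p = 5.8e-06). TraesCS1B02G237500 was at 8, 9.11 and 16.9 FPKM at 20 days and 1150.4, 1179 and 1202 at 30 days (log2 fold change 6.46 ± 0.61 SE, edgeR adjusted p = 8.5e-07), and TraesCS1A02G224600 at 25.7, 43.2 and 36.9 FPKM at 20 days and 1077, 1150.1 and 1164 at 30 days (log2 fold change 4.77 ± 0.58 SE, edgeR adjusted p = 9.2e-06). The libraries at 20 days spread several-fold in the first of these, while those at 30 days lay close together. The other pair on 1A rose from near 0: TraesCS1A02G224100 reached 0.305 ± 0.529 FPKM at 20 days and 20.5 ± 0.289 at 30 days (mean ± SD, n = 3), and TraesCS1A02G224400, Em protein CS41, reached 0.303 ± 0.381 FPKM at 20 days and 14.8 ± 1.31 at 30 days (mean ± SD, n = 3). Without single libraries at 20 days these fitted changes moved but stayed rises. TraesCS1D02G226000 had 8.16 without the third library. TraesCS1A02G224100, at 5.83 with all libraries, had 5.22, 12.54 and 5.21 without the first, the second and the third, the second being the only library at 20 days with reads of it. TraesCS1A02G224400, at 5.35 with all, had 6.94 without the second and 4.72 without the third.

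The large rises lay side by side on these chromosomes. The Em genes lie at one place on each, at 1A:394444437-394445102 to 1A:394587930-394588284 on 1A, at 1B:424531353-424532121 on 1B and at 1D:314426343-314426721 on 1D. Taking the Em genes with 5 gene models on either side gave 38 models, of which 31 were tested, 24 higher and 3 lower. Among them 12 were called at least 16-fold higher (4 on the log2 scale) of the 60 such genes in the whole test, and 7 of the 12 had no description. The other 19 tested models ran from -2.55 to 1.51 on the log2 scale, with 12 higher, 3 lower and 4 not called. These 7 were chosen after their values were seen. On 1B, TraesCS1B02G237400 was at 0, 0.116 and 0.585 FPKM at 20 days and 64, 74.7 and 70.6 at 30 days (log2 fold change 7.94 ± 0.56 SE, edgeR adjusted p = 6.2e-08), and TraesCS1B02G237600 at 3.06 ± 0.455 FPKM at 20 days and 116 ± 8.59 at 30 days (mean ± SD, n = 3). On 1D, TraesCS1D02G225900 was at 4.18, 4.51 and 9 FPKM at 20 days and 912, 947 and 934 at 30 days (log2 fold change 7.06 ± 0.69 SE, edgeR adjusted p = 1.1e-06), TraesCS1D02G225800 at 0.401 ± 0.42 FPKM at 20 days and 88.1 ± 1.26 at 30 days (mean ± SD, n = 3), and TraesCS1D02G225700 at 10.1 ± 4.17 FPKM at 20 days and 215 ± 10.5 at 30 days (mean ± SD, n = 3). On 1A, TraesCS1A02G224500 at 15.3, 41.5 and 23.9 FPKM at 20 days and 1709.5, 1898 and 1832 at 30 days became the tested gene ranked 6 in abundance at 30 days (log2 fold change 5.84 ± 0.74 SE, edgeR adjusted p = 1.3e-05). TraesCS1A02G224200 beside it went with it, at 15.4 ± 6.78 FPKM at 20 days and 1185 ± 19.8 at 30 days (mean ± SD, n = 3). The fitted changes near 0 reads depend on single libraries at 20 days: TraesCS1B02G237400 had 7.33 without the first and 9.85 without the third, and TraesCS1D02G225800, at 7.51 with all libraries, had 8.77 without the third. Together the 12 took 0.00304, 0.00558 and 0.00573% of all reads at 20 days and 0.331, 0.349 and 0.347% at 30 days.

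**Figure D3:**
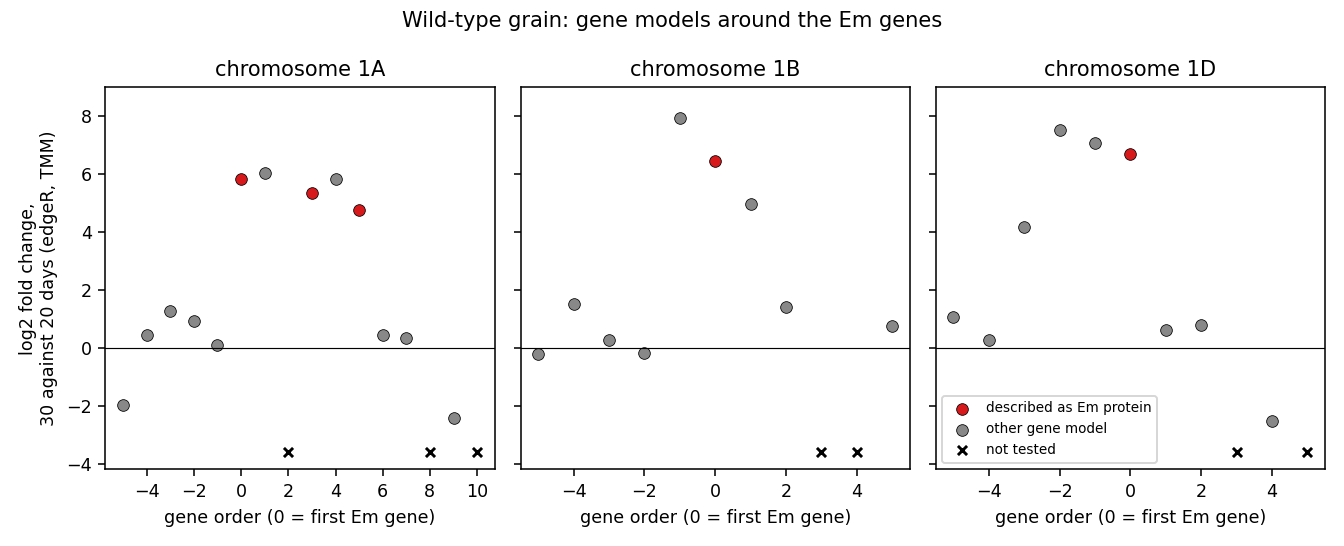
log2 fold change in wild-type grain, 30 against 20 days (y axis), of the gene models around the Em genes in their order along chromosomes 1A, 1B and 1D (x axis, 0 being the first Em gene). Models described as Em protein are red, others grey, and crosses at the foot mark models not tested. The 12 models above 4 sit side by side on each chromosome, with 1 untested model among them on 1A.

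EC proteins are the zinc-binding metallothioneins of the wheat embryo, and their genes ended as the 3 most abundant of all tested genes. TraesCS1A02G202900, EC protein III, was at 601, 465 and 577 FPKM in the 3 libraries at 20 days and 3278, 3936 and 3827 FPKM at 30 days (log2 fold change 2.50 ± 0.29 SE, edgeR adjusted p = 5.2e-06). The genes on 1B and 1D, both described as EC protein I/II and chosen after their values were seen, followed. TraesCS1B02G216800 was at 602, 565 and 481 FPKM at 20 days and 3189, 3746 and 3752 at 30 days (log2 fold change 2.45 ± 0.26 SE, edgeR adjusted p = 2.7e-06), and TraesCS1D02G206300 at 424 ± 61.2 FPKM at 20 days and 1978 ± 137 at 30 days (mean ± SD, n = 3) with a log2 fold change of 1.98. They were already abundant at 20 days, with ranks of 33 to 41.

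Chitin-binding lectins include wheat germ agglutinin, a lectin of the embryo. Of 4 tested of 10 listed genes 3 rose and 1 fell, a fall not called with library totals alone. TraesCS1A02G326800, Agglutinin isolectin 1, chosen after its values were seen, was at 16.7, 16.6 and 15.7 FPKM at 20 days and 207, 212 and 210.04 at 30 days (log2 fold change 3.44 ± 0.38 SE, edgeR adjusted p = 3.4e-06). Both other rises were those of undescribed chitin-binding genes. TraesCS1D02G328900 was at 20.3, 39.8 and 18.4 FPKM at 20 days and 535, 539 and 569 at 30 days (log2 fold change 4.15 ± 0.43 SE, edgeR adjusted p = 2e-06), and TraesCS1B02G340200, chosen after its values were seen, at 11.8 ± 1.88 FPKM at 20 days and 245 ± 9.28 at 30 days (mean ± SD, n = 3). Both tested oil body genes rose too, with a median log2 fold change of 1.07.

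Abscisic acid is the hormone of seed maturation, and protein phosphatases 2C hold its signalling down. Of 27 tested genes in its list 11 rose (40.7%, against 31.8% of all tested genes) and 3 fell, and with library totals alone 16 rose and 2 fell. The median log2 fold change was 0.25, ran from 0.16 to 0.33 without single libraries and was 1.75 for the 16 members that passed a filter of at least 5 FPKM in at least 3 libraries. TraesCS1B02G441400, a serine/threonine phosphatase that the table places in plant hormone signalling, was at 0.135, 0.0846 and 0 FPKM at 20 days and 5.34, 7.17 and 5.38 at 30 days (log2 fold change 6.03 ± 0.72 SE, edgeR adjusted p = 7.4e-06), with 6.79 without the first library at 20 days and 5.41 without the third. The most abundant of the list, TraesCS1A02G175500, known in the table by its response to abscisic acid alone, was at 38.6 ± 5.38 FPKM at 20 days and 139.8 ± 8.2 at 30 days (mean ± SD, n = 3) with a log2 fold change of 1.62.

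Histone genes were mostly lower at 30 days, while genes of DNA replication moved in both directions, as did the tested genes as a whole. Histones package DNA, and most are made while DNA is copied. Of 92 listed histone genes 85 were tested, and 81 fell while 2 rose, with a median log2 fold change of -3.75. By class, 19 of 19 tested H2B, 20 of 20 H3, 33 of 34 H4 and 9 of 12 H2A genes fell. TraesCS1A02G132400, a Histone H2A and the largest fall of the list at 5 FPKM or more, was at 14.3, 12.9 and 24.8 FPKM at 20 days and 0.635, 0 and 0.202 at 30 days (log2 fold change -6.18 ± 0.55 SE, edgeR adjusted p = 5.1e-07). The third library at 20 days was highest for it, the second at 30 days held no read, and the log2 fold change was -7.52 without the first at 30 days. TraesCS1A02G261900, Histone H3, was at 8.96, 6.95 and 12.4 FPKM at 20 days and 0.287, 0.331 and 0.339 at 30 days (log2 fold change -5.09 ± 0.31 SE, edgeR adjusted p = 1.9e-08). A pair of genes described as Histone H4 variant TH011, TraesCS1B02G376600 and TraesCS1A02G295400, fell too, the first with 7.7 ± 1.7 FPKM at 20 days and 0.202 ± 0.0957 at 30 days (mean ± SD, n = 3) and the second with 10.6 ± 4.19 FPKM at 20 days and 0.341 ± 0.259 at 30 days (mean ± SD, n = 3). The log2 fold change of the second was -5.13, and -5.84 without the third library at 30 days.

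Both risen histone genes were of class H2A, and one was the most abundant histone gene. That gene, TraesCS1B02G296300, was at 80.1, 81.4 and 76.6 FPKM at 20 days and 117, 133 and 143 at 30 days (log2 fold change 0.48 ± 0.14 SE, edgeR adjusted p = 0.0072). The other, TraesCS1A02G286900, was at 43.4 ± 4.78 FPKM at 20 days and 77.2 ± 7.29 at 30 days (mean ± SD, n = 3) with a log2 fold change of 0.59. The share of all reads in the 92 histone genes nevertheless went from 0.0809, 0.0722 and 0.116% at 20 days to 0.0272, 0.0304 and 0.0306% at 30 days.

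In DNA replication the moving helicase and the single-strand binding proteins parted. The MCM complex unwinds DNA at the fork. All 9 tested genes of its subunits fell, with a median log2 fold change of -2.25. The deepest, TraesCS1D02G264100, described as DNA helicase, was at 3.95, 4.75 and 6.97 FPKM at 20 days and 0.61, 0.67 and 0.794 at 30 days (log2 fold change -3.15 ± 0.27 SE, edgeR adjusted p = 3.3e-07). Of 5 tested genes described as Replication protein A subunit, which coats single-stranded DNA, 4 rose and none fell, with a median log2 fold change of 0.77. The largest rise of the list was that of TraesCS1B02G341000, annotated with single-stranded DNA binding, at 1.72, 1.91 and 2.05 FPKM at 20 days and 10.1, 8.43 and 9.49 at 30 days (log2 fold change 2.06 ± 0.15 SE, edgeR adjusted p = 9.6e-08). TraesCS1D02G004200, the most abundant of the list and placed in the replication pathway, was at 66.7 ± 4.64 FPKM at 20 days and 94.8 ± 3.61 at 30 days (mean ± SD, n = 3), and its call (log2 fold change 0.27) was lost without the third library at 20 days or without the first at 30 days. Across all 40 tested replication genes 13 rose and 20 fell.

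Kinesins are motors that move along microtubules, several of them during cell division. Of 18 tested motor genes 9 fell and 1 rose (with library totals alone 7 and 3), and of the 9 described as Kinesin 7 fell. The abundant members barely moved in FPKM. TraesCS1D02G104200 was at 11 ± 0.232 FPKM at 20 days and 9.98 ± 0.135 at 30 days (mean ± SD, n = 3), and TraesCS1A02G095000 at 12.6 ± 0.251 FPKM at 20 days and 12.6 ± 0.313 at 30 days (mean ± SD, n = 3), where the libraries of both ages overlapped. Both are called lower with TMM at log2 fold changes of -0.38 and -0.24, and neither is called with library totals alone, where the second has a value of 0.0045.

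Of 46 tested cell wall genes 29 fell and 8 rose, and with library totals alone 18 fell and 10 rose. Expansins and xyloglucan enzymes loosen the walls of growing cells, and 6 of 7 tested fell with none higher. TraesCS1A02G212600, Expansin EXPB2, was at 12.9, 20.9 and 10.9 FPKM at 20 days and 1.71, 1.86 and 1.86 at 30 days (log2 fold change -3.27 ± 0.29 SE, edgeR adjusted p = 5.4e-07). The largest rise was that of an Alpha-galactosidase, TraesCS1A02G164900, at 0.92 ± 0.336 FPKM at 20 days and 7.5 ± 0.265 at 30 days (mean ± SD, n = 3). The most abundant listed gene, TraesCS1D02G106500, a protein disulfide isomerase, which forms disulfide bonds, rose with a log2 fold change of 0.37.

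**Figure D4:**
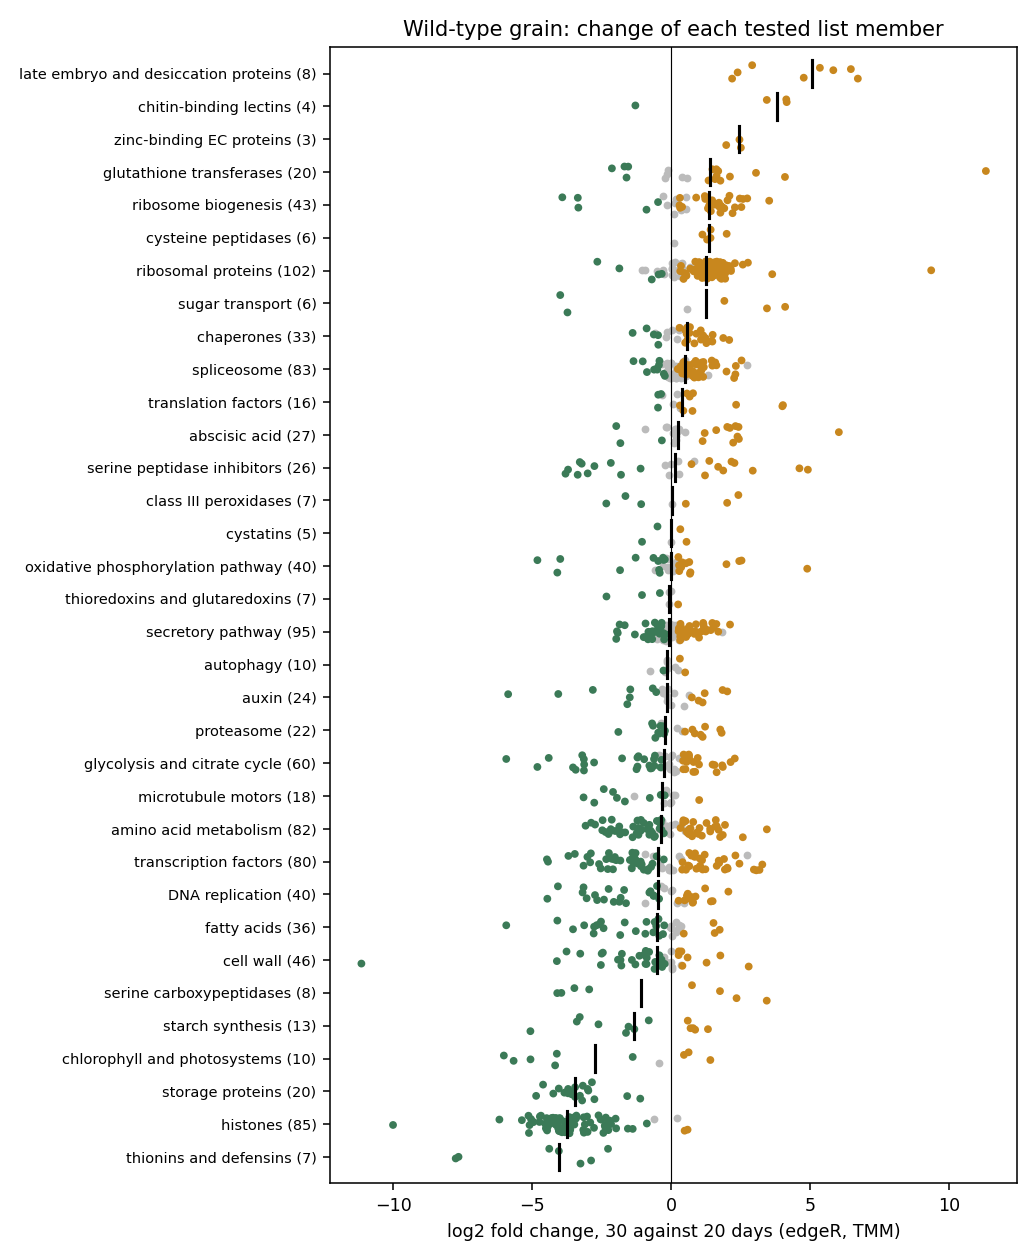
log2 fold change in wild-type grain, 30 against 20 days (x axis), of each tested member of the 34 gene lists with at least 3 tested members (rows, number tested in brackets), with the black bar at the list's median. Orange points are called higher, green lower and grey not called, and points beyond 9 in either direction are fitted values of genes with no read at one age. Late embryo proteins stand at the top with a median of 5.06, and thionins and defensins at the foot with -4.04.

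Genes of protein synthesis rose as storage genes fell. Of 102 tested ribosomal protein genes, which encode the protein parts of ribosomes, 79 rose and 5 fell, with a median log2 fold change of 1.24. Their 153 listed members took 0.258, 0.281 and 0.281% of all reads at 20 days and 0.816, 0.819 and 0.824% at 30 days. The most abundant, TraesCS1D02G101600, 40S ribosomal protein S4, was at 162, 177 and 188 FPKM in the 3 libraries at 20 days and 665, 654 and 679 FPKM at 30 days (log2 fold change 1.68 ± 0.11 SE, edgeR adjusted p = 3.3e-08). Within each age its libraries lay close together, and the gap between ages was several times either spread. The largest rise at 5 FPKM or more was that of TraesCS1A02G363900, at 0.36 ± 0.148 FPKM at 20 days and 5.52 ± 0.2 at 30 days (mean ± SD, n = 3), and the largest fall that of TraesCS1A02G001800, at 9.54 ± 0.167 FPKM at 20 days and 1.78 ± 0.238 at 30 days (mean ± SD, n = 3), both annotated as structural constituents of the ribosome.

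Factors that build and use ribosomes followed. In ribosome biogenesis 30 of 43 tested genes rose and 5 fell, with a median of 1.36. All 5 falls were genes that the table assigns to one protein subunit of ribonuclease P, the enzyme that trims transfer RNA precursors. The deepest of them at 5 FPKM or more, TraesCS1A02G444400, was at 6.81, 7.58 and 6.26 FPKM at 20 days and 0.781, 0.839 and 0.743 at 30 days (log2 fold change -3.36 ± 0.25 SE, edgeR adjusted p = 1.1e-07). The largest rise, that of TraesCS1D02G294400, was in another subunit gene of the same enzyme, at 0.713, 0.936 and 1.05 FPKM at 20 days and 13.2, 13.3 and 10.1 at 30 days (log2 fold change 3.52 ± 0.25 SE, edgeR adjusted p = 6.7e-08). A GTP-binding nuclear protein, TraesCS1A02G413000, was the most abundant of the list and rose with a log2 fold change of 0.32.

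Small nucleolar RNAs guide the chemical modification of ribosomal RNA. Of their 1214 genes 224 were tested, and 60 rose (26.8%, below the 31.8% of all tested genes) and 2 fell. The median level of those tested was 0.688 FPKM at 20 days and 1.65 at 30 days. At such levels a gene can pass the filter of 1 FPKM through its higher age alone, and the part of this in the counts was not tested. All snoRNA genes of the table together gave 24.7, 26.5 and 26.01 RPM, reads scaled to the library's total, at 20 days and 63.1, 61.3 and 60.1 at 30 days. The largest rise of a described one at 5 FPKM or more was that of ENSRNA050022858, Plant small nucleolar RNA SNOR75, at 0.242 ± 0.315 FPKM at 20 days and 7.29 ± 1.35 at 30 days (mean ± SD, n = 3), which rests on 5 reads in all at 20 days. Its log2 fold change was 4.36, and 5.88 without the first library at 20 days. Ribosomal RNA genes gave 434, 1023 and 972 RPM at 20 days and 449, 533 and 1257 at 30 days, so libraries of one age differed among themselves and the ages overlapped. The part of this difference in the snoRNA result was not tested.

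Translation factors gave the largest change in a trio of termination genes. All 3 tested genes for the release factor that ends translation at stop codons rose. TraesCS1B02G248600 was at 2.9, 2.79 and 2.38 FPKM at 20 days and 51.1, 53 and 50.9 at 30 days (log2 fold change 4.02 ± 0.22 SE, edgeR adjusted p = 7.9e-09), and TraesCS1A02G235000, chosen after its values were seen, at 1.82 ± 0.527 FPKM at 20 days and 34.5 ± 1.52 at 30 days (mean ± SD, n = 3). Of all 16 tested factors 9 rose and 3 fell, and with library totals alone 12 rose and none fell. The most abundant, the initiation factor gene TraesCS1D02G316900, was at 144 ± 8.72 FPKM at 20 days and 123 ± 1.5 at 30 days (mean ± SD, n = 3) and is called lower at -0.48 with TMM, a call lost with library totals alone.

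Among 83 tested spliceosome genes 43 rose and 10 fell, and with library totals alone 59 rose and 5 fell. The largest rise was that of a gene for an RNA-binding splicing factor, TraesCS1A02G229900, at 3.28 ± 0.375 FPKM at 20 days and 22.4 ± 0.518 at 30 days (mean ± SD, n = 3), and the largest fall that of TraesCS1A02G330100, annotated in the U5 snRNP, at 28.9 ± 0.296 FPKM at 20 days and 13.3 ± 0.996 at 30 days (mean ± SD, n = 3). Chaperones fold other proteins, and 21 of 33 tested rose while 5 fell. TraesCS1D02G284000, HSP70, is not a member of that list but the most abundant gene of the spliceosome and secretory pathway lists. It was at 171, 184 and 182 FPKM at 20 days and 643, 646 and 472 at 30 days (log2 fold change 1.48 ± 0.18 SE, edgeR adjusted p = 1e-05), with the third library at 30 days below the first and second. In the chaperone list, TraesCS1A02G295600 and TraesCS1A02G145000, annotated with protein folding and refolding, reached 13.4 ± 1.62 FPKM at 20 days and 67.1 ± 1.33 at 30 days (mean ± SD, n = 3) and 21.3 ± 1.39 FPKM at 20 days and 68.7 ± 0.995 at 30 days (mean ± SD, n = 3). The largest fall of the list was that of a transcription factor and not of a chaperone. This gene, TraesCS1A02G375600, Heat shock transcription factor A6e, was at 12.7 ± 1.16 FPKM at 20 days and 5.69 ± 0.87 at 30 days (mean ± SD, n = 3).

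Genes of protein breakdown moved in both directions, as did the tested genes as a whole (31.8% higher, 31.9% lower). The proteasome degrades tagged proteins, and 8 of 22 tested subunit genes rose (36.4%) while 10 fell (45.5%). With library totals alone these counts turned to 9 and 3. TraesCS1B02G210900 gave the largest rise among those at 5 FPKM or more, with 10.9 ± 0.736 FPKM at 20 days and 29.8 ± 1.91 at 30 days (mean ± SD, n = 3), and a beta type subunit, TraesCS1D02G123600, the largest fall among them, with 38 ± 1.37 FPKM at 20 days and 27.8 ± 1.58 at 30 days (mean ± SD, n = 3). The most abundant, TraesCS1A02G122700, at 37.5 ± 2.19 FPKM at 20 days and 37.2 ± 2.01 at 30 days (mean ± SD, n = 3), overlapped between the ages. Its call of -0.25 was lost under library totals alone and without any of 3 single libraries: the first at 20 days, the first at 30 days or the third at 30 days. Of 38 listed cysteine peptidases 6 were tested, and 5 rose and none fell, with a median of 1.35. The median level of those tested was 0.96 FPKM at 20 days and 2.83 at 30 days. So near the filter of 1 FPKM, a gene can pass through its higher age alone, and the part of this in the count was not tested. Serine carboxypeptidases, which trim proteins from their ends, split into 4 rises and 4 falls of 8 tested. TraesCS1D02G087600, a Carboxypeptidase, was at 26.2, 27.8 and 23.7 FPKM at 20 days and 1.97, 1.46 and 1.93 at 30 days (log2 fold change -4.10 ± 0.18 SE, edgeR adjusted p = 2.2e-09), and TraesCS1A02G086100 fell as well, with 41.8 ± 1.13 FPKM at 20 days and 4.4 ± 0.811 at 30 days (mean ± SD, n = 3).

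Serine peptidase inhibitors block such enzymes, and 10 of 26 tested rose while 10 fell (38.5% each, against 31.8 and 31.9% of all tested genes). The largest rise was that of TraesCS1A02G028200, annotated with a response to wounding, at 1.54, 2.09 and 1.35 FPKM at 20 days and 57.2, 59.8 and 63.4 at 30 days (log2 fold change 4.91 ± 0.37 SE, edgeR adjusted p = 1e-07). The largest fall at 5 FPKM or more was that of TraesCS1B02G034300 at 20.4 ± 4.9 FPKM at 20 days and 1.82 ± 0.954 at 30 days (mean ± SD, n = 3). Both Globulin 1 genes carry this annotation too and count among the falls. Cystatins inhibit cysteine peptidases, and of 5 tested 2 rose and 2 fell (with library totals alone 2 and 1). TraesCS1B02G322100 fell, with 32.9 ± 2.79 FPKM at 20 days and 18.8 ± 1.36 at 30 days (mean ± SD, n = 3), and TraesCS1B02G267100 rose, with 11.4 ± 0.581 FPKM at 20 days and 19.8 ± 0.791 at 30 days (mean ± SD, n = 3).

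Metabolic lists held a few abundant genes that rose. Glutathione transferases join glutathione to reactive compounds, and 11 of 20 tested rose while 4 fell. TraesCS1A02G078800 was at 30.1, 32.4 and 23.8 FPKM at 20 days and 586, 572 and 580.04 at 30 days (log2 fold change 4.09 ± 0.19 SE, edgeR adjusted p = 2.7e-09), and TraesCS1D02G191100 fell, with 15.6 ± 0.435 FPKM at 20 days and 6.3 ± 0.911 at 30 days (mean ± SD, n = 3). All 3 tested genes of glutamate-cysteine ligase, which starts glutathione synthesis, rose, with a median of 1.02. TraesCS1B02G307700 and TraesCS1D02G293000, undescribed oxidoreductases that the table places in glycolysis, were among the 10 most abundant tested genes at 30 days, with ranks of 4 and 7. The first was at 474, 499.95 and 435 FPKM at 20 days and 2024, 1959 and 1949 at 30 days (log2 fold change 1.83 ± 0.18 SE, edgeR adjusted p = 1.1e-06), and the second at 281 ± 8.32 FPKM at 20 days and 1619.8 ± 13.4 at 30 days (mean ± SD, n = 3). The list of glycolysis and citrate cycle genes as a whole had 20 rises and 24 falls of 60 tested, among the falls TraesCS1D02G163600, annotated with aldolase activity, at 5.41 ± 1.14 FPKM at 20 days and 0.589 ± 0.596 at 30 days (mean ± SD, n = 3) and a log2 fold change of -3.43, -4.46 without the first library at 30 days and -2.85 without the second.

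TraesCS1A02G083800, an oxidoreductase placed in fatty acid synthesis, was at 499.5, 534 and 461 FPKM at 20 days and 1908, 2004 and 1998 at 30 days (log2 fold change 1.74 ± 0.20 SE, edgeR adjusted p = 6.3e-06) and ranked 5 at 30 days. The list it belongs to had 4 rises and 22 falls of 36 tested (with library totals alone 10 and 15), among them an alcohol dehydrogenase, TraesCS1A02G050100, at 5.66 ± 1.03 FPKM at 20 days and 0.758 ± 0.013 at 30 days (mean ± SD, n = 3). In amino acid metabolism 29 of 82 tested rose and 41 fell. The largest rise was that of a mitochondrial enzyme of proline breakdown, TraesCS1B02G374500, at 10.9, 10.9 and 10.6 FPKM at 20 days and 145, 136 and 135 at 30 days (log2 fold change 3.44 ± 0.16 SE, edgeR adjusted p = 2.7e-09). TraesCS1A02G268700, of cysteine and methionine metabolism, fell, with 7.21 ± 0.766 FPKM at 20 days and 1.15 ± 0.11 at 30 days (mean ± SD, n = 3), and the most abundant of the list, TraesCS1A02G155200, a malate dehydrogenase, fell with 225 ± 10.5 FPKM at 20 days and 78.3 ± 3.53 at 30 days (mean ± SD, n = 3).

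In the remaining lists the counts of rises and falls depended on the scale, though not always which of them was larger. Among 40 tested genes of oxidative phosphorylation 13 rose and 12 fell (32.5 and 30.0%, near the 31.8 and 31.9% of all tested genes). With library totals alone 16 rose and 7 fell. A subunit gene of NADH dehydrogenase, TraesCS1A02G353000, was at 0.572, 1.04 and 0.367 FPKM at 20 days and 22.9, 24.1 and 23.7 at 30 days (log2 fold change 4.89 ± 0.44 SE, edgeR adjusted p = 5.9e-07), while the most abundant of the list, TraesCS1D02G197900, had 58.8 ± 5.75 FPKM at 20 days and 89.2 ± 12.5 at 30 days (mean ± SD, n = 3), a call (log2 fold change 0.36) lost without the third library of either age. Secretory pathway genes gave 31 rises and 30 falls of 95 (32.6 and 31.6%), or 38 and 15 with library totals alone, with a ubiquitin-conjugating enzyme gene, TraesCS1D02G301300, lowest at -1.98. Peroxidases gave 3 rises and 3 falls of 7 tested, thioredoxins and glutaredoxins 1 and 3 of 7, and autophagy genes 2 and 1 of 10. The same counts with library totals alone were 3 and 2, 2 and 2, and 4 and 0.

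Marker genes of grain tissues were also summed. They are largely genes already counted above, so their sums restate those values and are no separate evidence. The 12 endosperm markers (gliadins, glutenins and purothionin) summed to 45242 to 46081 FPKM in the libraries at 20 days and to 5866 to 5978 at 30 days, and all 11 tested fell. The 6 embryo markers (Em proteins and agglutinin) summed to 51.2 to 75.6 FPKM at 20 days and 2782 to 2956 at 30 days, and all 6 rose. The 2 Globulin 1 genes, listed as markers of aleurone and embryo, had sums of 2501 to 2676 FPKM at 20 days and 401 to 436 at 30 days, and both fell. The tissue that expresses them was not tested. In wild type the log2 fold changes of the 2 Globulin 1 genes were -3.00 and -2.76. Both genes were called higher at 30 days in the mutant. Green pericarp, the photosynthetic outer layer of young grain, was followed by 24 markers of chlorophyll-binding and photosystem proteins. Their sum was 9.48 to 11.7 FPKM at 20 days and 0.214 to 0.691 at 30 days, 11 were at 0 in all 6 libraries, and the 3 tested fell. In the wider list of chlorophyll and photosystem genes 6 of 10 tested fell and 3 rose, with a median log2 fold change of -2.75 that became 0.56 for the 3 members left by a filter of at least 5 FPKM in at least 3 libraries, among them TraesCS1B02G237700, annotated with chlorophyll synthesis, at 4.48 ± 0.845 FPKM at 20 days and 14.1 ± 1.14 at 30 days (mean ± SD, n = 3). The 110 markers of dividing cells summed to 1193 to 1919 FPKM at 20 days and 392 to 444 at 30 days, with 97 of 103 tested lower and 2 higher. The part of these tissue markers in the other changes was not tested.

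The mutant at the same ages gave a comparison with no shared libraries, though both came from the same fit. There 3308 of 5723 genes (57.8%) changed, against 63.7% in wild type, and the change with age itself differed between the cultivars for 1373 genes (24.0%), with wild type above the mutant in 622 (10.9%) and below it in 751 (13.1%). This test depends on the scale: with library totals alone its median moves by 0.78 on the log2 scale and it calls 2994 genes above and 361 below, while 982 of the 1373 calls keep their direction and call. All 20 tested storage members changed more negatively in wild type, with a median difference of -4.33, and in the mutant 8 of them rose and 1 fell with age. Other groups had differences of like size: 33 of 34 nontranslating models were below the mutant with a median of -4.02, and so were 29 of 33 genes of signal recognition particle RNA with a median of -4.29. Of these 33 RNA genes 32 rose in the mutant, with a median log2 fold change of 4.23, and none was called in wild type. For Gamma-gliadin 2, TraesCS1D02G001200, the difference was -4.38.

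The late embryo rise was found in both cultivars. All 8 tested late embryo genes rose in the mutant as well. None was called different in its change, with a median difference of 0.17 and values from -0.74 to 1.12. The SE of this difference was 0.70 to 1.18 for the 5 Em genes, so sizeable differences could be missed. The 12 risen genes of the Em loci took 0.342 ± 0.010% of reads in wild type and 0.206 ± 0.068% in the mutant at 30 days (mean ± SD, n = 3). Histones fell in both, 81 of 85 in wild type and 82 in the mutant, and 25 of them had a difference above 0 by test. Ribosomal protein genes rose in 79 of 102 in wild type and 63 in the mutant, and 58 had a difference above 0 by test and 2 below. All 3 risen lectin genes rose more in wild type. The SWEET genes TraesCS1A02G050400 and TraesCS1D02G052700, which fell in wild type, had differences of -7.60 and -5.54.

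**Figure D5:**
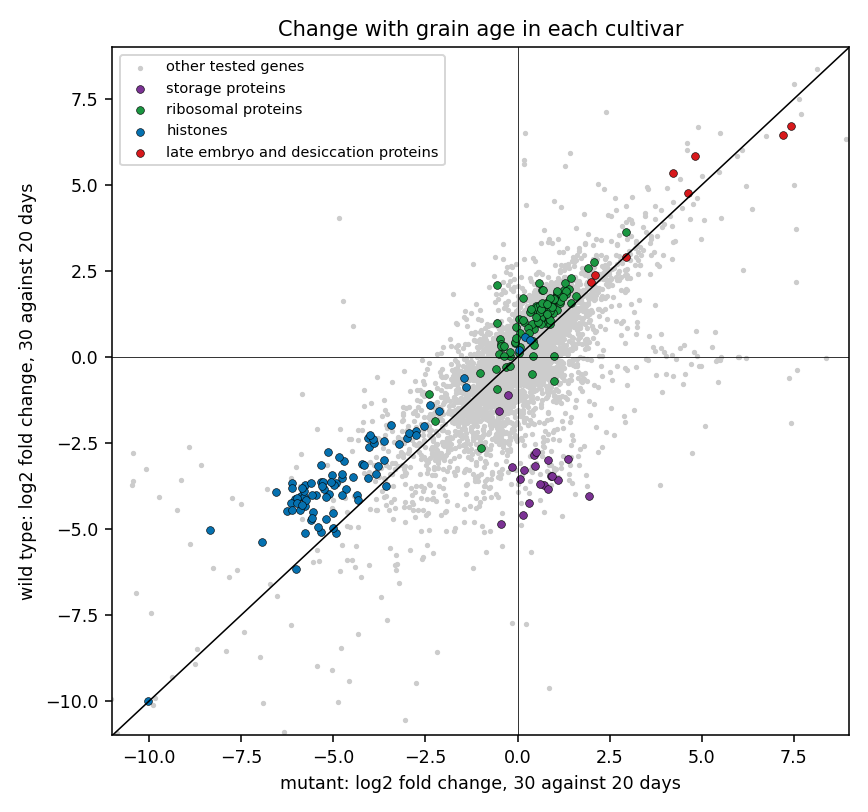
log2 fold change from 20 to 30 days in the mutant (x axis) and in wild type (y axis) of each tested gene, with 4 lists coloured and the diagonal marking equal change; 21 genes lie outside the plotted range. Late embryo genes lie near the diagonal at the upper right, histones at the lower left, and storage protein genes near 0 in the mutant and below 0 in wild type.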

How the data were processed

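RNA libraries of wheat grain were prepared with the Illumina TruSeq RNA kit, per the labels' protocols. The submitters' processing notes name cutadapt 1.9, an adapter trimmer, and FastQC. Not given in the sources used here: aligner, counter, handling of multiply matching reads, genome build. One table deposited by the authors holds raw counts and FPKM of each gene, per the file headers; FPKM is 0.0001 where the count is 0 and was read as 0. An incomplete last line (1) was left out.

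Library totals were recovered from 43 non-coding genes whose count was 100 or more throughout. Counts were tested with edgeR 4.0.16 (quasi-likelihood, TMM on those totals, all 12 libraries in 1 fit, common biological variation 21.2%, Benjamini-Hochberg adjusted p under 0.05) in R 4.3.3. The change with age was compared between cultivars as an interaction contrast. Shares of reads were compared with exact permutation tests. Alternatives used DESeq2 1.42.0, limma 3.58.1 on log2(FPKM + 1) and log2(FPKM + 0.1), other scales and filters, and left-out libraries. Replicate libraries were no copies of each other: counts of each pair differed by 9.07 to 19.3 times the sampling variance. The procedure was also run on simulated counts in which few genes changed, equally often up and down. That run does not cover changes as wide as those seen here.

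The comparison and the 36 gene lists were chosen with earlier results of these data known, and list patterns were narrowed after values had been seen. Lists match descriptions, GO terms and pathways of the table and can share genes. Named genes were the 6 largest described rises and falls at a mean of at least 5 FPKM in the higher age with no overlap between ages, and in each list with at least 3 tested members the largest rise, the largest fall and the most abundant member. Of 85 such genes 77 are printed, with 22 others chosen after their values were seen. No sequences are shown, since the sources used here hold none for these identifiers.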

Additional observations from a re-analysis of the deposited data

Results flagged for a closer look

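The change from 20 to 30 days differed between wild type and mutant, by the interaction test of edgeR at an adjusted p under 0.05, for 1373 of 5723 genes. The values that follow are log2 differences, wild type minus mutant, for the genes named above that passed this test. Among storage proteins, nontranslating models, thionins and defensins, the difference was -4.38 for TraesCS1D02G001200, -4.41 for TraesCS1D02G067100, -3.27 for TraesCS1D02G317300, -4.58 for TraesCS1D02G000200, -3.21 for TraesCS1B02G426100, -3.35 for TraesCS1A02G398200 and -4.10 for TraesCS1A02G014000. Among transcription factors, the difference was -2.98 for TraesCS1D02G332200, -2.51 for TraesCS1B02G343500, 1.44 for TraesCS1A02G219200, 0.49 for TraesCS1B02G232800 and -1.53 for TraesCS1A02G375600. Among starch and sugar supply, the difference was -1.53 for TraesCS1A02G419600, -1.73 for TraesCS1B02G449700, -2.71 for TraesCS1A02G091500, -7.60 for TraesCS1A02G050400, -5.54 for TraesCS1D02G052700, 1.55 for TraesCS1D02G265400, 2.58 for TraesCS1B02G276000 and 2.02 for TraesCS1A02G265200. Among genes described singly, the difference was -1.82 for TraesCS1B02G081300, -3.26 for TraesCS1D02G114800, -2.20 for TraesCS1A02G085600, -1.91 for TraesCS1D02G086700 and -3.34 for TraesCS1A02G107200. Among embryo genes, the difference was 2.35 for TraesCS1A02G326800, 2.34 for TraesCS1D02G328900, 1.68 for TraesCS1B02G340200 and -0.97 for TraesCS1D02G206300. Among replication, translation, splicing and folding, the difference was 0.77 for TraesCS1B02G341000, 0.70 for TraesCS1D02G101600, -1.67 for TraesCS1A02G001800, -3.09 for TraesCS1A02G444400, -0.70 for TraesCS1D02G316900, -0.53 for TraesCS1A02G330100, -0.47 for TraesCS1A02G295600, 0.50 for TraesCS1A02G145000 and 0.43 for TraesCS1D02G106500. Among protein breakdown and its inhibitors, the difference was 1.03 for TraesCS1B02G210900, -3.18 for TraesCS1D02G087600, -2.95 for TraesCS1A02G086100, -4.63 for TraesCS1B02G034300 and -1.30 for TraesCS1D02G301300. Among metabolism, the difference was 0.98 for TraesCS1B02G237700, -0.86 for TraesCS1A02G268700 and -0.82 for TraesCS1A02G155200. With library totals alone in place of TMM the call was lost for TraesCS1A02G295600, TraesCS1D02G316900, TraesCS1A02G330100, TraesCS1A02G268700, TraesCS1A02G155200 and TraesCS1D02G206300, and the sign turned for TraesCS1A02G295600 (0.31), TraesCS1D02G316900 (0.07) and TraesCS1A02G330100 (0.25). No group has more than 3 libraries, so no sample was examined as an outlier.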

How the results depend on the processing

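The counts of changed genes kept within 1.5 times of the reported ones in all alternatives tried but the stricter filter of at least 5 FPKM in at least 3 libraries, which tests fewer genes and gave 2110 calls, 1066 higher and 1044 lower, of which 1095 were at least 2-fold. Leaving out each wild-type library gave 3376 to 3551 calls, 1643 to 1761 higher and 1707 to 1795 lower, and 2121 to 2260 at least 2-fold. The test of the difference between cultivars depended on the scale. Library totals alone gave 3355 calls (2994 above, 361 below), limma on log2(FPKM + 0.1) 3375 (3018 above, 357 below) and limma on log2(FPKM + 1) 3488 (3141 above, 347 below), while the stricter filter gave 495 below; leaving out single libraries gave 1102 to 1513 calls, 460 to 704 above and 628 to 809 below. Wild-type reads in nutrient reservoir genes fell 9.03-fold as a share of the library and 5.40-fold as a share of the table's counts, whose total itself fell, and 8.96 to 9.14-fold without single libraries. The number of lists with more rises than falls was 15 of 34 with at least 3 tested members, 13 to 17 without single libraries and 12 to 20 over the other alternatives. Under the stricter filter no cysteine peptidase was left, so that list has no median there.

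The median of chlorophyll and photosystem genes went from -2.75 to 0.56 with FPKM of at least 5 in at least 3 libraries, which left 3 of 10 tested members. Medians of lists nearer 0 changed sign too: with FPKM of at least 5 in at least 3 libraries, serine peptidase inhibitors -0.12, cystatins -0.058, oxidative phosphorylation pathway -0.020, class III peroxidases -0.63 and auxin 0.019. With DESeq2, cystatins -0.013 and oxidative phosphorylation pathway -0.022. With median-of-ratios factors, cystatins -0.013 and oxidative phosphorylation pathway -0.022. With library totals alone, proteasome 0.0035, thioredoxins and glutaredoxins 0.16, auxin 0.10, secretory pathway 0.15 and autophagy 0.10. With limma on log2(FPKM + 0.1), proteasome 0.0070, thioredoxins and glutaredoxins 0.16, auxin 0.10, secretory pathway 0.16 and autophagy 0.10. With limma on log2(FPKM + 1), proteasome 0.0063, thioredoxins and glutaredoxins 0.15, auxin 0.096, secretory pathway 0.13 and autophagy 0.098. With TMM on protein-coding genes alone, oxidative phosphorylation pathway -0.0017. Without single libraries they ran, serine peptidase inhibitors -0.0059 to 0.23, cystatins -0.100 to 0.11, oxidative phosphorylation pathway -0.063 to 0.053 and class III peroxidases -0.090 to 0.17. The kinesin gene TraesCS1A02G095000 had 0.0045, 0.0047 and 0.0044 with library totals alone and with limma at pseudocounts of 0.1 and 1. With library totals alone the balance of rises and falls changed in 8 lists. It turned in proteasome (9 rises, 3 falls) and in glycolysis and citrate cycle (24 and 21), became even in thioredoxins and glutaredoxins, transcription factors and auxin, and went from even to more rises in serine peptidase inhibitors (12 and 10), cystatins and class III peroxidases. The cause was not tested.

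Libraries with the same number were taken as a replicate block in one alternative, which gave 3577 calls in wild type (1778 higher, 1799 lower) and 1294 between cultivars; it moved no count of calls by over 1.5 times. Deviations of same-numbered libraries at 20 and 30 days correlated at 0.24, -0.079 and 0.15 across genes for numbers 1, 2 and 3. Libraries 1 and 3 at 20 days correlated best with their own number at 30 days. Library 2 at 20 days correlated best with library 3 at 30 days (0.18). From 3 libraries at each age, these values cannot decide whether the numbers pair the libraries. With 3 libraries a group no share of reads can reach p under 0.1. Genes under about 1 FPKM, and folds of genes with no read at one age, are limited by depth.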

Other observations

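On 1A and 1D the fourth gene model after the last Em gene fell, TraesCS1A02G225000 with a log2 fold change of -2.43 from 23.2 to 5.09 FPKM, and TraesCS1D02G226400 with -2.55 from 23.9 to 4.85 FPKM, both chosen after their values were seen. In the mutant their log2 fold changes were -0.47 and -0.73. Of 1915 transfer RNA genes 10 were tested, with 6 rises (60%, against 31.8% of all tested genes) and no fall. The median level of those tested was 0.516 FPKM at 20 days and 2.26 at 30 days. At such levels a gene can pass the filter of 1 FPKM through its higher age alone, and the part of this in the count was not tested. Of the 33 tested genes of signal recognition particle RNA, a non-coding part of the particle that guides proteins to the endoplasmic reticulum, edgeR called none in wild type, with 1 at an unadjusted p under 0.05, and DESeq2 and limma on log2(FPKM + 1) called 1 each. Of the 3645 genes called in wild type, 708 had neither a description nor a GO term or pathway in the table.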
